A study of Mus musculus with 4 samples.

Results

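The Notch signalling genes described here are 10 genes of mouse lung, chosen by symbol: the receptors Notch1, Notch2 and Notch3, the ligands Jag1, Jag2, Dll1 and Dll4, and the target genes Hes1, Hey1 and Nrarp. All 10 were found among the 52636 Ensembl genes of the table, by mapping the gene identifiers to the GENCODE M21 annotation of mm10. RNA was measured in whole lungs of C57BL/6 embryos at embryonic day 14.5, in 2 libraries from wild-type animals (control) and 2 from animals with a conditional knockout of Yap (Yap CKO), which the series title places in the epithelium. The sources name neither the Cre driver nor the deleted exons, and they do not say whether a library holds 1 embryo or several, and each p-value therefore covers nothing but the spread among these samples, which may be technical. A whole lung also holds mesenchyme, vessels, blood and nerves beside the epithelium in which the deletion was made, and in such bulk RNA fewer cells of a type and less RNA per cell cannot be told apart.

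Notch receptors sit in the cell membrane and are switched on by ligands on a neighbouring cell. Proteases then cut the receptor, and its inner part moves to the nucleus, where it joins the DNA-binding protein RBPJ and a MAML coactivator and turns on repressor genes of the HES and HEY families. In the developing airway epithelium Notch activity favours secretory cells over ciliated and neuroendocrine cells, in vessels Dll4 and Notch1 set the choice between sprouting and non-sprouting endothelium, and in the intestine Notch holds back Atoh1 and with it the secretory lineage.

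The libraries held 17756301 to 21333878 reads counted to genes. For Yap1 itself the controls gave 5686 and 3467 normalized counts, and the knockouts 3209 and 4483. The groups overlapped (log2 difference -0.23, adjusted p = 0.683, limma), so Yap1 does not check the labels, and every direction given here is that of the libraries labelled Yap CKO. The controls stood apart from each other. Xist, the RNA of the inactive X chromosome, had 42.6 normalized counts in control 1 against 46726 in control 2, and the knockouts had 42729 and 50045. The Y-linked gene Ddx3y was at 1726 in control 1 and at 5.77 to 16.4 in the other 3 libraries, so control 1 differs in sex markers from control 2 and from both knockouts. A list of 12 heart muscle genes summed to 1769 and 49211 in the controls and to 11092 and 1995 in the knockouts.

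None of the 10 Notch genes passed limma's test at an adjusted p under 0.05, where 2.33% of the 19472 genes tested passed (231 rises, 1.19%, and 223 falls, 1.15%). Notch2, Dll1 and Hey1 had an unadjusted p under 0.05, as did 18.9% of all genes. edgeR and DESeq2 on the recovered reads called none of the 10 either, against 2.07% and 5.33% of all genes. All 10 genes lay above the expression filter, at means of 52.8 to 5465 normalized counts. The groups did not overlap for 8 of them, 5 higher in Yap CKO (25.2% of all genes) and 3 lower (25.6% of all genes), where 50.8% of all genes were apart one way or the other. The median log2 difference of the 10 was 0.036, beside -0.005 over all genes tested, and the median of its size without sign was 0.24, beside 0.19. Another ligand, Dll3, is no member and passed the test.

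**Figure D1:**
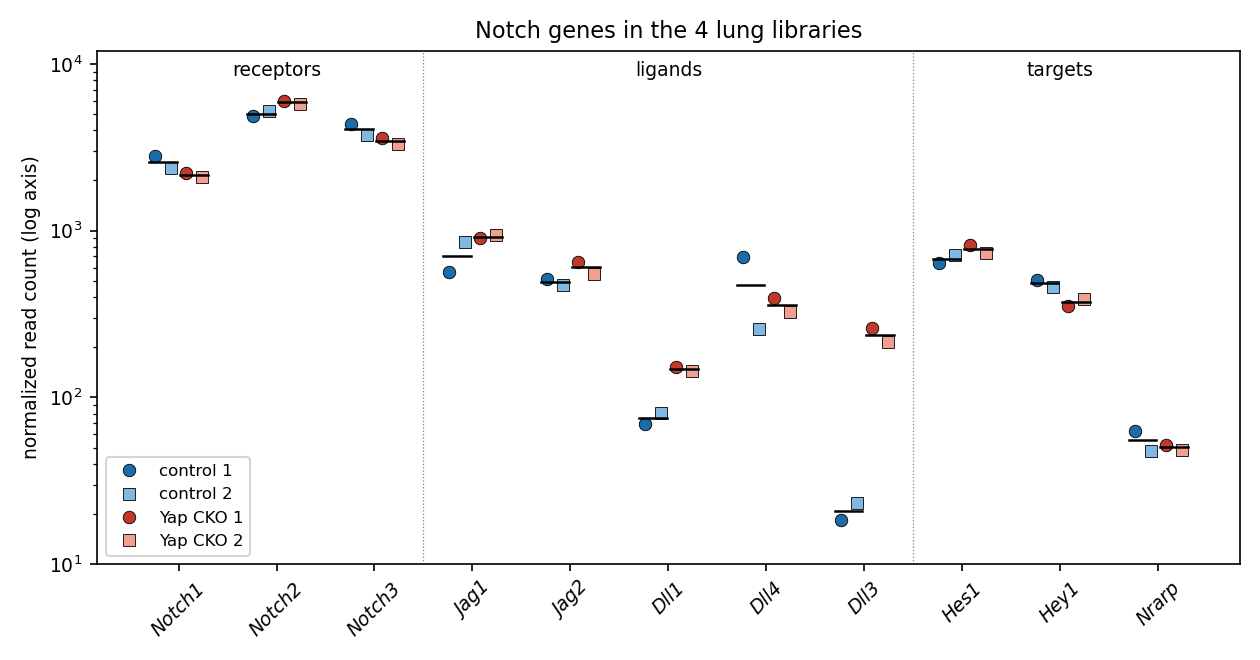
Normalized read counts (vertical log axis) of the 10 Notch genes and of Dll3 in the 4 libraries, 1 point per library, with a black line at each group's mean (n = 2 per group). Dll1 and Dll3 lie higher in both Yap CKO libraries, and Dll4 is highest in control 1, at 693.

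Levels of different genes were compared per kb of annotated exon. Notch2 stood highest (mean over the 4 libraries 507 normalized counts per kb), followed by Notch3 (465), Hes1 (357), Notch1 (167), Jag1 (140), Hey1 (131), Dll4 (108), Jag2 (78.4), Dll1 (26.4) and Nrarp (20.5). Of the neighbours in this order, the ranges over libraries were apart between Notch3 and Hes1, between Hes1 and Notch1, and between Jag2 and Dll1. The other 6 pairs of neighbours overlapped, so their order is not settled by these samples. The level of Nrarp has a further limit, since 2051 of its 2582 exon bases are shared with the antisense gene Gm38287, which held 0 reads. The use of strand in the counting is not stated, and without strand reads in the shared bases cannot be assigned to either gene.

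Among the receptors, Notch2 was higher and Notch1 and Notch3 were lower in both Yap CKO libraries, by small amounts that did not pass. Notch2 (mm10 chromosome 3, 98013527 to 98150361), the receptor with the highest mean level per kb, though below Notch3 in control 1, was at 4842 and 5235 normalized counts in the controls and at 6028 and 5754 in Yap CKO. Its groups did not overlap. The log2 difference was 0.23 with a standard error of 0.093, a 95% interval of 0.0028 to 0.45 and an adjusted p of 0.26.

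Notch3 (chromosome 17, 32120820 to 32166852) is the receptor of vascular smooth muscle and pericytes. It was at 4381 and 3760 in the controls and at 3596 and 3296 in Yap CKO, lower in both knockouts. The difference was -0.24 ± 0.11 (SE), with an interval of -0.50 to 0.026 and an adjusted p of 0.31. Smooth muscle markers were lower by a larger amount, at a median log2 difference of -1.35. The 8 listed genes summed to 19607 and 21558 in the controls and to 7748 and 10994 in Yap CKO. Of these markers 4 fell, as did 1.15% of all genes, and all 8 were lower in both knockouts, as were 25.6% of all genes. Their part in the Notch3 value was not tested. The 6 pericyte markers, such as Pdgfrb and Rgs5, overlapped between groups in their sum (6352 and 6604 against 6992 and 6577). Of the 5 above the filter none passed limma's test, and they gave no common direction. Pdgfrb, the largest part of the sum, was higher in both knockouts (0.22), as were 25.2% of all genes. Kcnj8 (-0.31) and Abcc9 (-0.35) were lower in both, as were 25.6% of all genes. Rgs5 and Cspg4 overlapped. The part of pericytes in the Notch3 value was not tested.

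Notch1 (chromosome 2, 26457903 to 26516663), which acts in endothelium and epithelium, was at 2795 and 2366 in the controls and at 2213 and 2110 in Yap CKO. Both knockouts lay below both controls, at -0.25 ± 0.11, with an interval of -0.51 to 0.012 and an adjusted p of 0.285. Without control 2 the differences of Notch1 (-0.37, adjusted p = 0.034) and Notch3 (-0.35, adjusted p = 0.0454) passed, in a fit where 12.6% of all genes passed and in which the lone control is assumed to vary like the other group. The endothelial receptor Notch4, which is no member, was at 804, 660, 724 and 659 and overlapped between groups. The 10 endothelial markers, with Pecam1 and Cdh5 first, summed to 20709 and 22544 in the controls and to 21624 and 21028 in Yap CKO, and none of them passed limma's test (0 at an unadjusted p under 0.05, and the groups were apart for 2 of 10).

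Per kb of exon the receptors summed to 1287 and 1198 in the controls and to 1249 and 1171 in Yap CKO, so the sum overlapped while its parts shifted. Notch2 made up 34.9% and 40.5% of that sum in the controls and 44.8% and 45.6% in Yap CKO. Notch3 made up 42.1% and 38.8%, then 35.6% and 34.8%. In control 1 Notch3 was the larger of these receptors, and in the other 3 libraries Notch2 was. These shares carry no test.

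Of the ligands, the Jagged genes were slightly higher in Yap CKO and Dll4 could not be placed. Jag1 (chromosome 2, 137081456 to 137116644), a ligand of airway and vessel wall, was at 564 and 854 in the controls and at 898 and 941 in Yap CKO. Control 1 stood apart from the other 3 libraries, which lay within a narrow range. The difference was 0.40 ± 0.19 (interval -0.057 to 0.87, adjusted p = 0.321). It was 0.11 without control 1 and 0.70 without control 2.

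Jag2 (chromosome 12, 112907819 to 112929776), a ligand of airway epithelium, was at 512 and 469 in the controls and at 651 and 552 in Yap CKO. The groups did not overlap, but the 2 knockouts differed from each other by more than the controls did. The difference was 0.29 ± 0.13 (interval -0.022 to 0.60, adjusted p = 0.295).

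Dll4 (chromosome 2, 119325784 to 119335962), the ligand of endothelial tip cells and arteries, was at 693 in control 1 and 256 in control 2, and at 395 and 323 in Yap CKO. Both knockouts lay between the controls. The fitted difference of -0.24 ± 0.42 (interval -1.25 to 0.77, adjusted p = 0.806) turned with the control used: it was -0.95 without control 2 and 0.48 without control 1. A change of Dll4 in either direction was therefore not detectable with these samples. Control 1 held 715 reads (exact 95% Poisson interval 664 to 769, for counting error only) and control 2 held 219 (191 to 250), so the controls differed by more than counting error. The arterial markers gave no common direction: Efnb2 stood at 2779, 3072, 3230 and 3757, and Gja4 at 329, 319, 253 and 216.

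Dll1 (chromosome 17, 15367354 to 15376872) showed the largest difference of the 10 members, short of the threshold. This ligand drives Notch in progenitors of many tissues and, in the intestine, is carried by early secretory cells. It was at 68.8 and 80.7 normalized counts in the controls and at 152 and 144 in Yap CKO, with each pair close together and the groups well apart. The means were 74.7 ± 8.4 and 148 ± 5.91 (SD, n = 2), a ratio of 1.98. The log2 difference was 0.98 ± 0.20 (SE), with an interval of 0.50 to 1.45 and an unadjusted p of 0.00206. Its adjusted p of 0.0656 missed the threshold with limma, as did 0.0727 with edgeR and 0.0554 with DESeq2.

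The difference of Dll1 ranged from 0.86 to 1.09 when each library was left out in turn. It passed without control 1 (adjusted p = 0.0211, where 12.6% of all genes passed) and without control 2 (0.00208). It also passed with robust moderation of the variance (0.0372, 4.18% of all genes), and with a crossed replicate block, added after the data were seen, it was the 1 member called (4.99% of all genes), while the block by the replicate numbers called 0. It did not pass without Yap CKO 1 (0.518) or Yap CKO 2 (0.467), without the filter (0.137) or without the intensity trend (0.108). The counts behind it were 71 and 69 reads in the controls (exact 95% Poisson intervals 55.5 to 89.6 and 53.7 to 87.3) and 158 and 154 in Yap CKO (134 to 185 and 131 to 180). These counting intervals do not meet across groups. The antisense lincRNA A930024N18Rik shares 867 of the 4219 exon bases of Dll1 and stood at 9.69, 11.7, 14.4 and 7.46 in the order control 1, control 2, Yap CKO 1 and Yap CKO 2, well below Dll1.

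Dll3 (chromosome 7, 28293553 to 28302238), a divergent Delta ligand that does not activate Notch on neighbouring cells and is known from neuroendocrine cells, rose. It was at 18.4 and 23.4 normalized counts in the controls and at 260 and 213 in Yap CKO. Both knockouts stood far above both controls. The means were 20.9 ± 3.52 and 236 ± 32.6 (SD, n = 2), 11.3-fold higher. The log2 change was 3.44 ± 0.25 (SE) with an interval of 2.85 to 4.03 and an adjusted p of 0.00507 (limma). The reads were 19 and 20 in the controls and 270 and 229 in Yap CKO. The call ended without the intensity trend (adjusted p = 0.0663), without Yap CKO 1 (0.169) and without Yap CKO 2 (0.0828), with log2 changes of 3.44, 3.30 and 3.58.

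Per kb of exon, Jag1, Jag2, Dll1, Dll4 and Dll3 summed to 373 and 308 in the controls and to 477 and 434 in Yap CKO. Dll3 made up 1.73% and 2.67% of that sum in the controls and 19.1% and 17.3% in Yap CKO. Dll1 made up 4.37% and 6.22%, then 7.54% and 7.85%. Dll4 took 48.2% of the sum in control 1 and 19.4% to 21.6% in the other libraries. The Dll3 share was apart between the groups and the Dll4 share set control 1 apart. These shares carry no test.

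**Figure D2:**
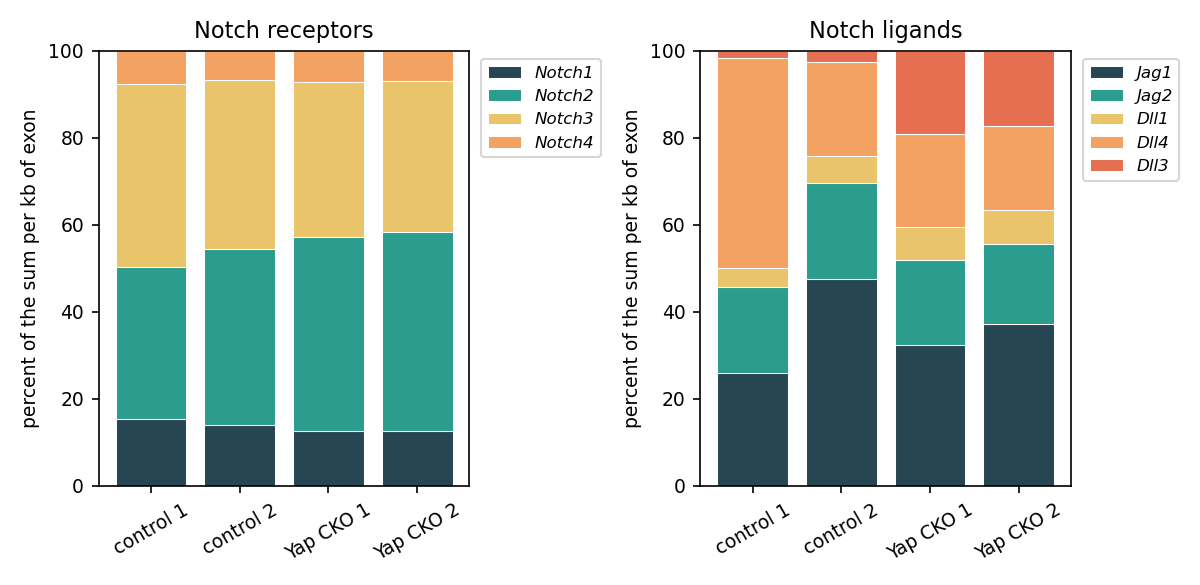
Share of each receptor (left) and ligand (right) in the family's summed level per kb of exon, in percent (vertical axis), with 1 stacked bar per library. Notch2 takes 44.8% and 45.6% of the receptor sum in Yap CKO against 34.9% and 40.5% in control, and Dll3 takes 19.1% and 17.3% of the ligand sum against 1.73% and 2.67%.

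The promoter windows of Dll1 and Dll3 are printed because these ligands were higher together, with the window of Lfng, an enzyme gene described further on that is known as a Notch target. They come from RefSeq (GRCm38.p6), which held a window of 250 bases before to 50 bases after a start site for 8 of the 10 members and none for Hes1, Hey1 and Dtx4. Capitals mark 3 motifs, searched on both strands: TGGGAA (or TTCCCA), the core bound by RBPJ, GGAATG (or CATTCC), the core bound by TEAD, the DNA-binding partner of YAP, and CAGCTG, an E-box of the kind bound by bHLH factors such as ATOH1. No capital stretch belongs to 2 motifs.
Dll1, chr17:15376883-15377182, minus strand: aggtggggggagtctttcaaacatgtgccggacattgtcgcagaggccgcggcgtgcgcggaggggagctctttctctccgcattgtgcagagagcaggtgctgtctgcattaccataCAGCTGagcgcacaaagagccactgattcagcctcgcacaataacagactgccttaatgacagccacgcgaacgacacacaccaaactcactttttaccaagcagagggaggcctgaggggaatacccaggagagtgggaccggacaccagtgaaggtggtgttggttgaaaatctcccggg
Dll3, chr7:28301736-28302035, minus strand: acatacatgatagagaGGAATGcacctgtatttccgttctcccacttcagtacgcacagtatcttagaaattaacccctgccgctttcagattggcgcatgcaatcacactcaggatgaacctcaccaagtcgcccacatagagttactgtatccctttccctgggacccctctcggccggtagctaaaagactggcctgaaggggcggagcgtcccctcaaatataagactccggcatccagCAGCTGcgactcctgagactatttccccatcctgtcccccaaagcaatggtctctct
Lfng, chr5:140607091-140607390, plus strand: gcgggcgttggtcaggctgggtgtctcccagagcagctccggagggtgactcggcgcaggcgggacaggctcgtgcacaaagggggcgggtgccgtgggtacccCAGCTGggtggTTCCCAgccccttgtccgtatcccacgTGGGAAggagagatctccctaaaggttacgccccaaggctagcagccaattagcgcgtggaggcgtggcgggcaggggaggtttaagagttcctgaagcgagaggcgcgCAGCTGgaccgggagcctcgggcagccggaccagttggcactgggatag

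The E-box began 132 bases before the start site in Dll1 and 7 bases before it in Dll3, and the TEAD core began 234 bases before it in Dll3. Lfng held RBPJ cores 135 and 108 bases before its start and E-boxes 146 bases before and 1 base after it. Of all 32851 RefSeq windows of this length 25.6% held the RBPJ core, 14.7% the TEAD core and 16.3% the E-box. Of the 8 members with a window, 0 held the RBPJ core, Notch1 held the TEAD core, and Jag1, Dll1 and Nrarp held the E-box. The Notch1 window lies 12841 bases from the gene start that GENCODE gives, and the Dll3 window 453 bases from it. A match describes the letters only.

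The target genes gave no common direction. Hes1 (chromosome 16, 30064384 to 30067796), a repressor that Notch switches on in most tissues, was at 643 and 711 normalized counts in the controls and at 822 and 735 in Yap CKO. The groups were apart by less than the gap within either pair. The difference was 0.20 ± 0.12 (SE), with an interval of -0.077 to 0.48 and an adjusted p of 0.411, which leaves room for a fold between 0.948 and 1.39.

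Hey1 (chromosome 3, 8663359 to 8667256), a repressor that Notch switches on in arteries and airways, was at 504 and 461 in the controls and at 355 and 391 in Yap CKO. Both knockouts were lower. The difference was -0.37 ± 0.13 (interval -0.67 to -0.067, unadjusted p = 0.0238, adjusted p = 0.191).

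Nrarp (chromosome 2, 25180758 to 25183339), which encodes a feedback inhibitor of the Notch nuclear complex, was at 63.0 and 47.9 in the controls and at 51.9 and 48.5 in Yap CKO. The groups overlapped, with 65 and 41 reads against 54 and 52. The difference was -0.13 ± 0.26 (interval -0.76 to 0.51, adjusted p = 0.834), and without control 1 it was 0.064. Dll4, Nrarp, Notch1, Notch3, Jag2 and Hey1 were higher in control 1 than in control 2, and Jag1, Hes1, Notch2 and Dll1 were lower there.

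**Figure D3:**
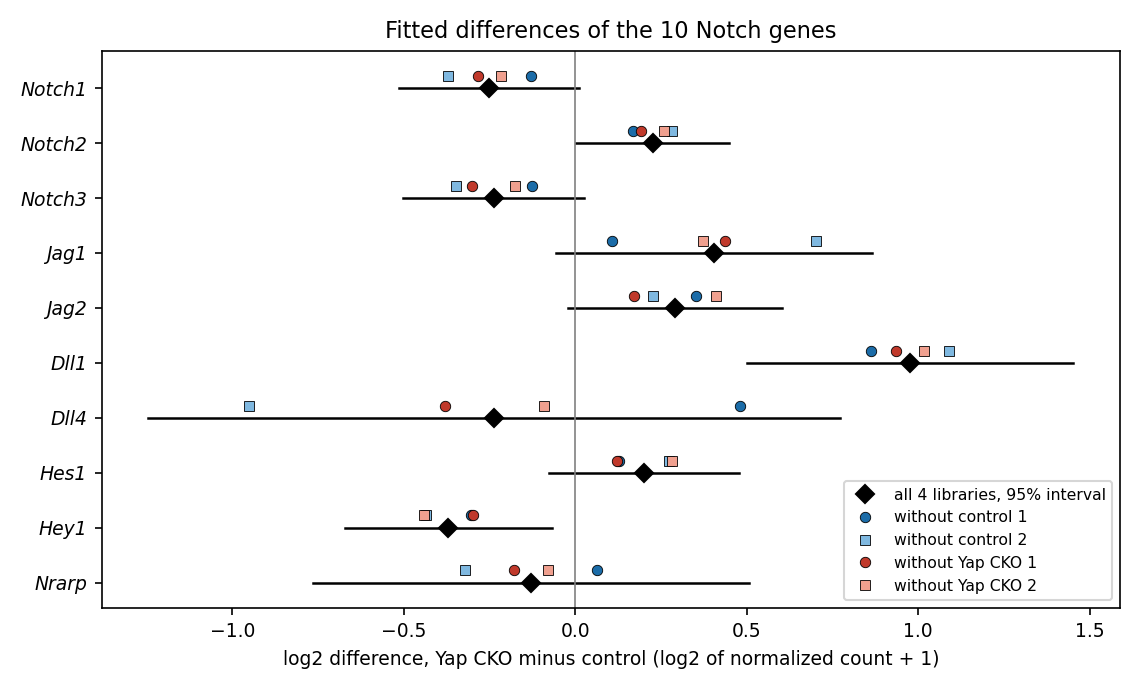
The 10 Notch genes (vertical axis) against their fitted log2 difference, knockout minus control (horizontal axis), as a black diamond with its 95% interval from limma, and the value with each library left out as a coloured point. Dll1 stays between 0.86 and 1.09, while Dll4 runs from -0.95 without control 2 to 0.48 without control 1.

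Of 64 further Notch pathway genes listed by role, 57 passed the filter, 3 of these rose, 1 fell and 53 did not pass. Their median log2 difference was -0.066, beside -0.005 over all genes, and 14 of them had an unadjusted p under 0.05, where 18.9% of all genes did. The groups were apart for 13 genes upward and 22 downward, beside 25.2% and 25.6% of all genes. Over all genes 2.33% were called. The rises were Dll3 and the transcription factor genes Atoh1 and Gfi1, and the fall was Dtx4. Which genes passed depended on the library left out. With each library left out in turn, the log2 changes ranged from 3.3 to 3.6 for Dll3 and from 4.9 to 6.7 for Atoh1. They ranged from 2.7 to 3.4 for Gfi1 and from -0.8 to -0.6 for Dtx4.

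Of the 5 genes for sugar transfer onto Notch proteins, which tunes how receptors answer to Delta and Jagged ligands, none passed and 1 had an unadjusted p under 0.05. Lfng, the Fringe enzyme gene most tied to Delta signalling, was at 386 and 348 in the controls and at 226 and 257 in Yap CKO. Both knockouts were lower, by -0.60 ± 0.14 (adjusted p = 0.0959). Its relative Mfng was at 483, 479, 652 and 497 (0.24, adjusted p = 0.454), and Pofut1, which adds the first sugar, differed by 0.12 (adjusted p = 0.524).

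Of the 13 genes for ubiquitin transfer and trafficking of receptors and ligands 1 fell, as did 1.15% of all genes. Values were negative for 10 of the 13, as for 9858 of all 19472 genes. Dtx4, a Deltex ubiquitin ligase gene, was at 1935 and 1835 in the controls and at 1072 and 1229 in Yap CKO. Both knockouts lay far below both controls, and the fall was -0.71 ± 0.11 with an adjusted p of 0.0283 (limma). The call ended without the filter (0.0898), without the trend (0.133), without Yap CKO 1 (0.333) and without Yap CKO 2 (0.144). Neurl1a, a ligase gene for ligand uptake, was at 377, 361, 233 and 251 (-0.61, adjusted p = 0.0791). Its difference was -0.58 without control 1 and -0.64 without control 2. Numbl, a paralog of the Notch antagonist Numb, differed by -0.27 (adjusted p = 0.228).

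None of the 10 genes of the receptor proteases passed limma's test (1 at an unadjusted p under 0.05, 0 by edgeR or DESeq2). These enzymes cut the receptor before and after ligand binding. Psenen, a gamma-secretase subunit gene, was at 213 and 242 in the controls and at 183 and 124 in Yap CKO (-0.59, adjusted p = 0.225). It shares exon bases with 2 genes on the other strand. Aph1a (-0.22, adjusted p = 0.323) and Furin (-0.22, adjusted p = 0.518) followed.

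None of the 14 genes of the nuclear complex and its corepressors passed limma's test (3 had an unadjusted p under 0.05, edgeR called 0 and DESeq2 called 1). The coactivator gene Maml2 was at 846, 959, 1090 and 1108 (0.29, adjusted p = 0.219), and Hdac1 at 762, 755, 895 and 917 (0.26, adjusted p = 0.228).

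**Figure D4:**
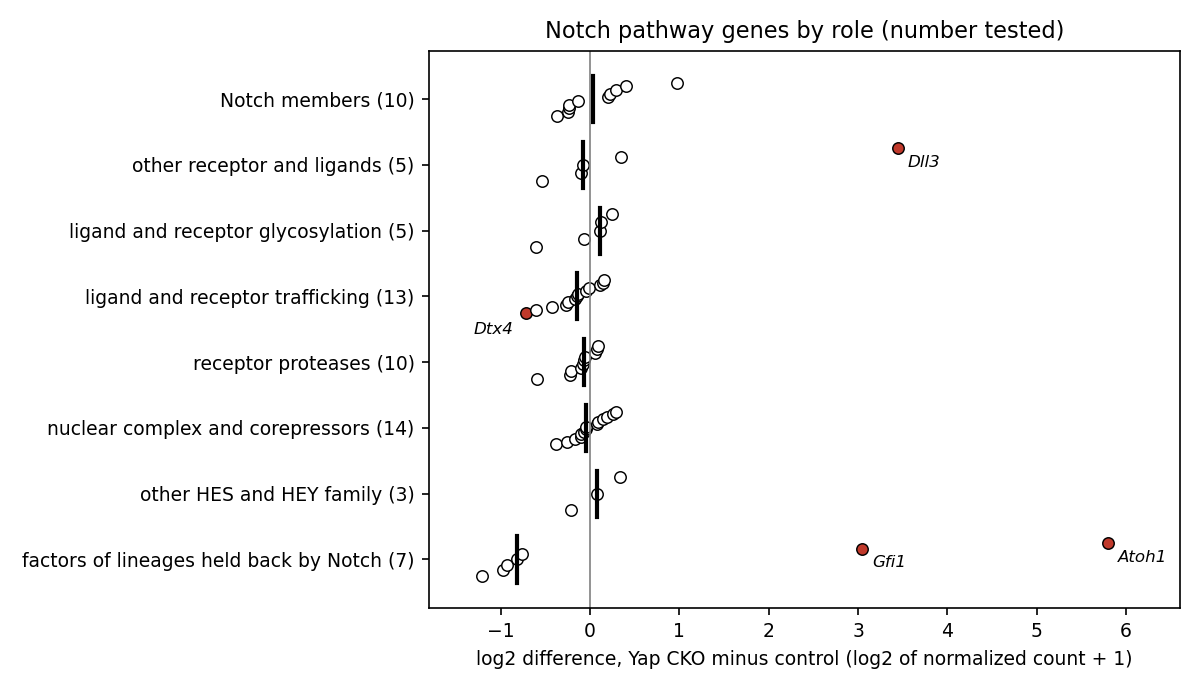
Tested Notch pathway genes by role (vertical axis) against their log2 difference, knockout minus control (horizontal axis), with the number tested in parentheses. Filled points passed limma's test, and black bars are medians. Dll3, Gfi1, Atoh1 and Dtx4 are the filled points, and none of the 10 members is.

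Other genes of the HES and HEY family gave no call among the 3 that passed the filter (0 at an unadjusted p under 0.05 with limma, 0 by edgeR or DESeq2). Hes6 was at 360, 386, 429 and 361 in the order control 1, control 2, Yap CKO 1 and Yap CKO 2. Hey2 was at 73.6, 167, 156 and 126 and Heyl, the HEY gene of vascular smooth muscle, at 1239, 1982, 1292 and 1424. Both were highest in control 2, the library with the highest heart muscle sum, and the part of heart tissue in these values was not tested. With all libraries the log2 difference was 0.33 for Hey2 (adjusted p = 0.692) and -0.21 for Heyl (adjusted p = 0.65), and both signs turned with the control used. Hey2 was at 0.92 without control 2 and at -0.25 without control 1. Heyl was at -0.55 without control 1 and at 0.13 without control 2.

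Of the 9 factors of lineages that Notch holds back, 7 passed the filter, 2 of these rose and 5 did not pass. Over all genes tested 1.19% rose. Atoh1, the factor that starts the intestinal secretory lineage, rose from 0.97 and 5.85 normalized counts in the controls to 225 and 183 in Yap CKO (log2 change 5.79 ± 0.59, adjusted p = 0.0116, limma). The controls held 1 and 5 reads of Atoh1 and the knockouts 234 and 196. Gfi1, which acts after Atoh1 in that lineage, rose from 8.72 and 4.68 to 68.3 and 53.1 (3.04 ± 0.41, adjusted p = 0.0231). The control means, 3.41 for Atoh1 and 6.70 for Gfi1, lay below the filter's mean of 10. Both genes passed the filter through the Yap CKO libraries alone, so no fall could have been called for them. Both calls ended without either knockout library, without the intensity trend (0.0881 each) and without the filter (Atoh1 0.0571, Gfi1 0.0783). Without Yap CKO 1 and without Yap CKO 2 the adjusted p was 0.225 and 0.129 for Atoh1 and 0.346 and 0.203 for Gfi1.

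The factors of neuroendocrine and ciliated cells named here were lower in both knockouts without passing. Insm1, a factor of neuroendocrine cells, was at 46.5, 35.1, 20.2 and 25.2 (-0.81, adjusted p = 0.247). The ciliated cell factor Foxj1 was at 35.9, 28.1, 16.3 and 14.9 (-0.98, adjusted p = 0.198). Mcidas (-0.76, adjusted p = 0.421) and Gmnc (-1.21, adjusted p = 0.345), which start the ciliated program, were lower as well. Both levels were low, with control and Yap CKO means of 13.6 and 7.56 for Mcidas and of 28.2 and 14.1 for Gmnc. The Gmnc difference hung on the knockout library used: it was -0.32 without Yap CKO 1 and -2.11 without Yap CKO 2.

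Of the marker lists of secretory, neuroendocrine, ciliated and epithelial cells, the intestinal secretory list had all its genes called. Its 8 markers summed to 91.1 and 59.6 in the controls and to 3756 and 2575 in Yap CKO. All 8 rose, as did 1.19% of all genes. Reg4, Tff3 and Guca2a were at 0 in both controls, and Agr2 and Atoh1 had control means of 2.82 and 3.41. These genes passed the filter through the Yap CKO libraries alone, so no fall could have been called for them. The 8 markers include Atoh1 itself and were listed with earlier results of these data known. The 7 neuroendocrine markers summed to 235 and 316 in the controls and to 203 and 190 in Yap CKO, the opposite direction to Dll3, with Chga and Chgb below 13 in every library. The 6 ciliated markers summed to 420, 315, 440 and 444. Of the 3 above the filter, Ccdc39 (0.48, adjusted p = 0.155) and Tekt1 (0.067, adjusted p = 0.934) had positive values, and Foxj1 a negative one. The 9 general epithelial markers summed to 18613 and 17167 in the controls and to 14839 and 15623 in Yap CKO. Of these 9 markers 1 fell, as did 1.15% of all genes. The 5 secretory airway markers, those of the cell type that Notch favours in the lung, overlapped in their sum (268 and 524 against 470 and 544), and of the 3 above the filter Scgb1a1 fell (-1.87, adjusted p = 0.0363), while Cyp2f2 (1.14, adjusted p = 0.335) and Scgb3a2 (0.77, adjusted p = 0.398) had positive values that did not pass. The part of these cells in the ligand values was not tested.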

How the data were processed

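RNA of whole mouse lung was sequenced in 4 libraries, 2 per group, and groups were taken from the sample titles. The deposited table gives a normalized read count (a signal that is never negative) per Ensembl gene, on mm10 per the file headers. Tools listed in the submitters' processing notes, without roles, are featureCounts 1.5.0-p1, Bowtie2 2.2.9, edgeR 3.18.1 and DESeq 1.16.0. The sources used here state neither strand setting nor annotation release. In each library 100% of values were whole multiples of 1 number (within 0.001 reads), so reads were recovered. The deposited factors, 0.855 to 1.07, equalled TMM factors computed from these reads.

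Of 52636 identifiers 52489 matched GENCODE M21. Symbols, positions and merged exon lengths came from it. Differences were fitted with limma 3.58.1 (R 4.3.3) on log2(normalized count + 1), a scale that understates changes of low genes, across all 19472 genes with a mean of at least 10. The variance was moderated with an intensity trend (2 residual and 4.5 prior degrees of freedom). P-values were two-sided and Benjamini-Hochberg adjusted over all genes, with calls at an adjusted p under 0.05. edgeR 4.0.16 (quasi-likelihood) and DESeq2 1.42.0 were run on the recovered reads. The fit was tested on simulated data with the same spread in both groups. Here the controls varied more than the knockouts (median SD of log2 values 0.14 against 0.098), which the simulation does not cover. With 2 against 2 samples no exact permutation test could reach 0.05.

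The members and lists were chosen with earlier results of these data known. Named were all members, Yap1, called pathway genes, the 3 smallest p-values per role, all tested genes of the ligand, HES/HEY and lineage roles, and up to 2 first markers per list, except for some results not reported here. Other names, such as Xist, Chga, Chgb and Scgb1a1, and the motifs and printed windows were chosen after values were seen.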

Additional observations from a re-analysis of the deposited data

How the results depend on the processing

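The number of genes called over all genes was 454. It was 56 without the filter, 6 without the intensity trend, 813 with robust moderation, 1037 with DESeq2, 972 with the crossed replicate block and 2 to 2459 when each library was left out in turn (2 and 7 without Yap CKO 1 or 2, 2459 and 2458 without control 1 or 2, where fewer samples set the spread). Under equal totals 292 rises and 179 falls were called, against 231 and 223. Of the 10 members 1, Dll1, passed with robust moderation and with the crossed replicate block, and 0 to 5 passed when a library was left out. The 5, without control 2, were Dll1, Dll4, Jag1, Notch1 and Notch3. Of the other pathway genes, 4 of which were called, 1 passed without the filter, 0 without the trend and 0 to 8 with a library left out. The cause of these moves was not tested. The median of the members ranged from -0.047 to 0.12. Signs turned for 7 of the named genes when a library was left out. The values ran from -0.95 to 0.48 for Dll4, from -0.32 to 0.064 for Nrarp and from -0.22 to 0.067 for Notch4. They ran from -0.30 to 0.11 for Dlk2 and from -0.046 to 0.20 for Hes6. For Hey2 they ran from -0.25 to 0.92 and for Heyl from -0.55 to 0.13. The replicate numbers name samples and nothing in the labels pairs them. Deviations of same-numbered libraries correlated at -0.36 across genes, and with the replicate block 342 genes, 0 members and 4 other pathway genes were called. The crossed replicate block, chosen after seeing the data, gave 972, 1 and 4. The TMM setting repeats the deposited scaling by construction. In a fit without a library the remaining sample of its group is assumed to vary like the other group.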

Other observations

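Other ligand-like genes of the pathway stood outside the comparisons above. Dlk1, an imprinted gene for a Delta-like protein without the usual Notch-binding domain, was at 12839 and 13579 normalized counts in the controls and at 19523 and 14373 in Yap CKO. Its groups were apart, at a log2 difference of 0.34 (adjusted p = 0.303, limma). Its paralog Dlk2 was at 10.7, 10.5, 11.5 and 8.39 in the order control 1, control 2, Yap CKO 1 and Yap CKO 2 (adjusted p = 0.933). The Notch-binding surface protein gene Dner was at 30.04, 57.3, 26.9 and 29.8 (-0.54, adjusted p = 0.504), with control 2 above the other 3 libraries. Poglut1, Rfng and the core factor Rbpj were tested without a call.

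Some family members were near or at the limit of detection. Hes2, Hes3, Hes5 and Helt held at most 1 read in any library, and Neurog3 held 0 in all 4, which allows up to 3 reads, or 2.80 to 3.51 normalized counts. Neurod1 was at 0 in 3 libraries and at 0.93 in Yap CKO 2. Hes7 was at 6.78, 9.36, 5.77 and 5.59.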
